A study of Homo sapiens with 2 samples.

Results

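Distal intergenic peaks are the sites of a chromatin profile that lie far from any annotated gene start. Here they were the peaks on chromosomes 1 to 22 and X that the authors' annotation called intergenic, outside repeats and CpG islands, and placed more than 50 kb from the nearest transcription start site (TSS). They numbered 1779 of the 49854 peaks of control cells and 1257 of the 29283 peaks of drug-treated cells, 3036 of 79137 in all. The cells were PLC8024, a human liver cancer line, profiled by CUT&Tag, in which an antibody steers a transposase to a chromatin protein or mark and the cut fragments are sequenced. There was 1 library of control cells, with no vehicle named, and 1 of cells exposed for 6 hours to 10 nM of a drug. Neither the drug nor the antibody is named in the labels, and the series title concerns target genes of the mitotic motor KIF11. No library was replicated, so the spread between replicates is unknown for every value, and no p-value was computed.

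Distal regulatory elements are stretches of DNA, often far from the genes they act on, where transcription factors bind and which can come into contact with promoters. In liver cells such elements are typically occupied by HNF4A, a nuclear receptor that maintains hepatocyte genes, by the FOXA factors, which can bind closed chromatin, and by AP-1 after growth or stress signals. A peak far from annotated genes can also mark a promoter missing from the annotation, a pseudogene, or a place where reads from several copies of a sequence are collected. The gene named for a peak is the one with the nearest annotated start, and it is not shown to be a target.

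Some of these sites lay on promoters of RNA genes that are listed in RefSeq but were not the start sites used by the authors' annotation. Of 34789 RefSeq promoter windows, each from 250 bases before to 50 bases after a gene's start, 45 were touched by a distal peak. Among these 45 was a window of the protein-coding gene PTP4A1. The 45 windows lay under 40 control peaks, of which 25 overlapped a drug peak. They also lay under 21 drug peaks, of which 20 overlapped a control peak. Over all peaks, 40.1% of control peaks overlapped a drug peak and 70.7% of drug peaks a control peak. The windows printed here are from RefSeq, GRCh38.p14, which shares its coordinates with hg38, and read 5′ to 3′. LOC124904670 and LOC124904186 had the highest control scores among windows whose start lay in a peak of both libraries, and the other 4 are all those that held the HNF4A letters. Capitals mark the letters of a searched motif on either strand. These windows were chosen after the values had been seen.
LOC124904670, chr19:21569207-21569506, minus strand: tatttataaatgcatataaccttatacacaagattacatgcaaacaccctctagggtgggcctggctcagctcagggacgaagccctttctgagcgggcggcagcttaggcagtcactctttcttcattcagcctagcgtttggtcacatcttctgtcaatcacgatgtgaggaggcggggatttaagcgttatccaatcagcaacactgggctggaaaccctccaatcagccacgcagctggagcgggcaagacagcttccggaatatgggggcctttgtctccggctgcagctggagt
LOC124904186, chr1:56332267-56332566, minus strand: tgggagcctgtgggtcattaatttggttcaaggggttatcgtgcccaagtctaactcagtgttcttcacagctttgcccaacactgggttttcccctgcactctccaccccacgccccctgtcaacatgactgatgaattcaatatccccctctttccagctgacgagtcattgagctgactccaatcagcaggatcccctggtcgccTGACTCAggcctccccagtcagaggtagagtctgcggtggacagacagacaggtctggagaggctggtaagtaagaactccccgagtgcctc
ZFHX3-AS3, chr16:73232531-73232830, plus strand: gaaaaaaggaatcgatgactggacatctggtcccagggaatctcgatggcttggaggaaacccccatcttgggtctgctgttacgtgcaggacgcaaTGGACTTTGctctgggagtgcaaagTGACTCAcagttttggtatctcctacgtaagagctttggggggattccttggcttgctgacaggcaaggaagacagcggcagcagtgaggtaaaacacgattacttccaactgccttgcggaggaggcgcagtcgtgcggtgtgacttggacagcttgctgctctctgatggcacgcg
LOC105372564, chr20:22524141-22524440, minus strand: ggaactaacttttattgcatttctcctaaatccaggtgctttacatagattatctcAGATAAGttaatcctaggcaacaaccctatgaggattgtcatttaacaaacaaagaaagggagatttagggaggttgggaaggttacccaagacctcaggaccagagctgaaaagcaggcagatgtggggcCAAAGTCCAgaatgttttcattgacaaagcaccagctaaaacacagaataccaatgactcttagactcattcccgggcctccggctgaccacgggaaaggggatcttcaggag
LOC105376079, chr9:70470500-70470799, minus strand: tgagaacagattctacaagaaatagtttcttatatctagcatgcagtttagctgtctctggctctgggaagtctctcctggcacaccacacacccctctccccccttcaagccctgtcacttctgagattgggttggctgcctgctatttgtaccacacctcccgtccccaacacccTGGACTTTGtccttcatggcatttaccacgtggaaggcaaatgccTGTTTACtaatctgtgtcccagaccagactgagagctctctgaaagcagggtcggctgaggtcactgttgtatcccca
LOC105377347, chr4:102621053-102621352, minus strand: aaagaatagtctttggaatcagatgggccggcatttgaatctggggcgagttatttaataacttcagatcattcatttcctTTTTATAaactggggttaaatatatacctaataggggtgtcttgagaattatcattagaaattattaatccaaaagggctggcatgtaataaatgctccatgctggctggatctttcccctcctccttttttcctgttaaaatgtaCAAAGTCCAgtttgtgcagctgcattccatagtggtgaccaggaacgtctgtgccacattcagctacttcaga

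The promoter of LOC124904670 lay under a control peak of score 1858 and a drug peak of score 706. The score is the authors' own value for a peak and by the convention of the peak caller grows with the −log10 of its q-value, so it ranks peaks within a list. That window held none of the searched letters. The promoter of LOC124904186 lay under peaks of scores 938 and 319, and its AP-1 letters lay inside both. At LOC105372564, an RNA gene whose peak was named for LINC00261, the noncoding neighbour of the liver and endoderm factor FOXA2, the scores were 275 and 77. Its HNF4A letters lay inside both peaks, and the GATA letters AGATAAG lay outside them. At LOC105377347 the scores were 229 and 91, and the HNF4A letters lay inside the control peak but not inside the narrower drug peak. Its TATA box letters, on the reverse strand, lay outside both. The promoters of ZFHX3-AS3 (score 292) and LOC105376079 (score 230, nearest annotated gene KLF9) had a control peak and no drug peak. ZFHX3-AS3 held HNF4A and AP-1 letters, and LOC105376079 held HNF4A and FOXA letters, all inside the control peak, with the HNF4A letters of both on the reverse strand as TGGACTTTG.

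Over all 45 windows, the HNF4A letters CAAAGTCCA occurred in 4 (8.89%), against 0.385% of all RefSeq windows and 0.429% of the 12806 windows of long noncoding RNAs. Among long noncoding RNA windows under any control peak the share was 0.253% of 2374. The FOXA letters TGTTTAC occurred in 5 windows (11.1%), against 3.42% of all and 4.40% of long noncoding RNA windows. For the AP-1 letters TGANTCA the count was 5 (11.1%), against 7.69% and 10.3%, and for the ETS letters CCGGAAGT it was 4 (8.89%), against 4.12% and 2.07%. Among long noncoding RNA windows under any control peak, 2.27% held the FOXA, 5.81% the AP-1 and 7.54% the ETS letters, and among all windows under a control peak 9.34% held the ETS letters. Both strands were searched, and the AP-1 letters are their own reverse complement. The letters of CEBP (TTGCGCAA) and HNF1, NFI and CTCF motifs were in 0 of the 45 windows. Over all windows their shares were 0.152%, 0.006%, 0.029% and 0.624%, so low that 45 windows cannot show a lack of them. TEAD letters (ACATTCCA) were in 1 (2.22%), GATA letters in 1 (2.22%) and the TATA box letters TATAAAA in 3 (6.67%). The shares over all windows were 1.18%, 2.67% and 4.53%. The 45 windows had a median GC content of 50.3% and a median of 5 CpG. Over all windows the medians were 58.7% and 14, and over those of long noncoding RNAs 50% and 5. Long noncoding RNA windows under any control peak had 66% and 26, so they differed from the 45 in composition. A match of letters describes the sequence and shows no binding, and the windows are few. In addition, 2 of them belong to the same RNA gene and nearly coincide, and both are among the 4 with the ETS letters.

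The distal sites were weak and narrow compared with promoters, as were other sites outside promoters. In control cells their median score was 72, ranging from 17 to 7969, and their median width was 281 bp. Promoter peaks of the same list had a median score of 327 and a median width of 603 bp. Nearer intergenic peaks had medians of 73 and 294 bp, and later introns 56 and 282 bp. In drug-treated cells the distal median was 39, ranging from 13 to 3185, with a median width of 200 bp, the smallest width in either list. Exactly that smallest width was seen for 18.0% of control distal peaks (95% interval 16.3 to 19.9) and 54.8% of drug distal peaks (52.0 to 57.6), against 58.6% of drug peaks in later introns. The strongest 10% of the control list held 69 of the distal peaks, 3.88% of them, and in the drug list it held 43, 3.42%. The lists hold no read totals, so the depth behind either library was unknown, and widths and scores can both move with depth.

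**Figure D1:**
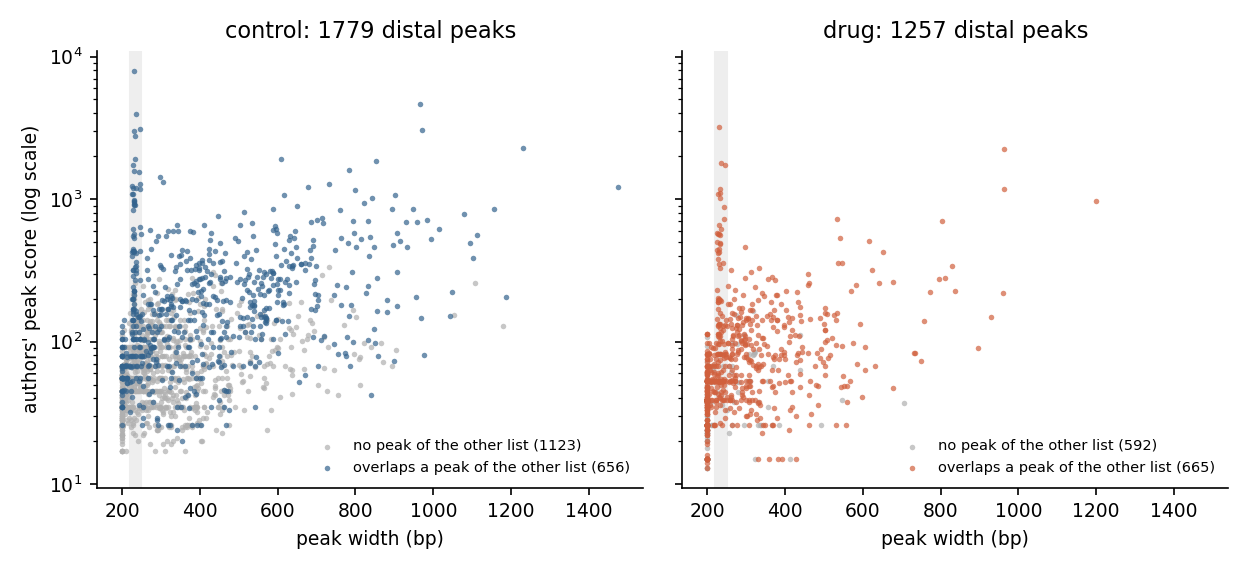
Width in bp (horizontal) against the authors' peak score (vertical, log scale) for every distal peak, with 1779 control peaks on the left and 1257 drug peaks on the right. Coloured points overlap a peak of the other list and grey points do not, and the shaded band covers widths of at least 220 and under 250 bp, in which a column of very high scores stands apart from the slow rise of score with width.

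Distal peaks made up 3.57% of the control list (3.41 to 3.73) and 4.29% of the drug list (4.06 to 4.53). The order turned round where weak or narrow peaks were left out. At a score of at least 50 in both lists the shares were 3.52% in control and 2.85% in drug, and among peaks wider than 200 bp they were 3.39% and 3.03%. The fraction of a chromosome's peaks that were distal ran from 0.598% on chromosome 19 to 6.81% on chromosome 13 in control, and from 0.576% on chromosome 19 to 8.29% on chromosome 8 in drug. Chromosome 2 held the largest number of distal control peaks, 156 of 1779.

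The overlapped share of distal control sites lay between those of introns and promoters. Of the 1779 control peaks 656 overlapped a drug peak by 1 bp or more, 36.9% (34.6 to 39.2), against 40.1% over all control peaks. Among the strongest control peaks, as many as the drug list holds, 55.8% of distal sites were overlapped. Over the full lists, distal sites stood above intergenic peaks within 50 kb of a TSS (32.7%), peaks in later introns (20.2%) and peaks in the first intron (24.1%), and far below promoters (74.4%). In the other direction 665 of the 1257 drug peaks overlapped a control peak, 52.9% (50.1 to 55.7), against 70.7% over all drug peaks. This share was 86.7% at scores of at least 50 in both lists and 87.3% among peaks wider than 200 bp, but 45.9% against the control list shortened to equal length. The shares over all peaks, 40.1% and 70.7%, were not recomputed under these restrictions. At drug scores of 59 to 80, 85.9% of distal, 87.6% of nearer intergenic, 78.5% of later-intron and 98.2% of promoter peaks were overlapped. Intergenic drug peaks nearer a TSS were overlapped in 62.8%, first introns in 59.1%, later introns in 47.9% and promoters in 97.6%. These intervals cover counting error only.

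Overlap followed strength. Split into 10 equal groups by score among themselves, 9.55% of the weakest control distal peaks had a drug peak and 177 of the 178 strongest did. Among drug distal peaks the share rose from 4.76% in the weakest group to 124 of 126 in the strongest. Overlapped control sites had a median score of 175 and a median width of 386 bp, against 56 and 253 bp for the rest. Overlapped drug sites had 61 and 245 bp, against 26 and 200 bp.

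**Figure D2:**
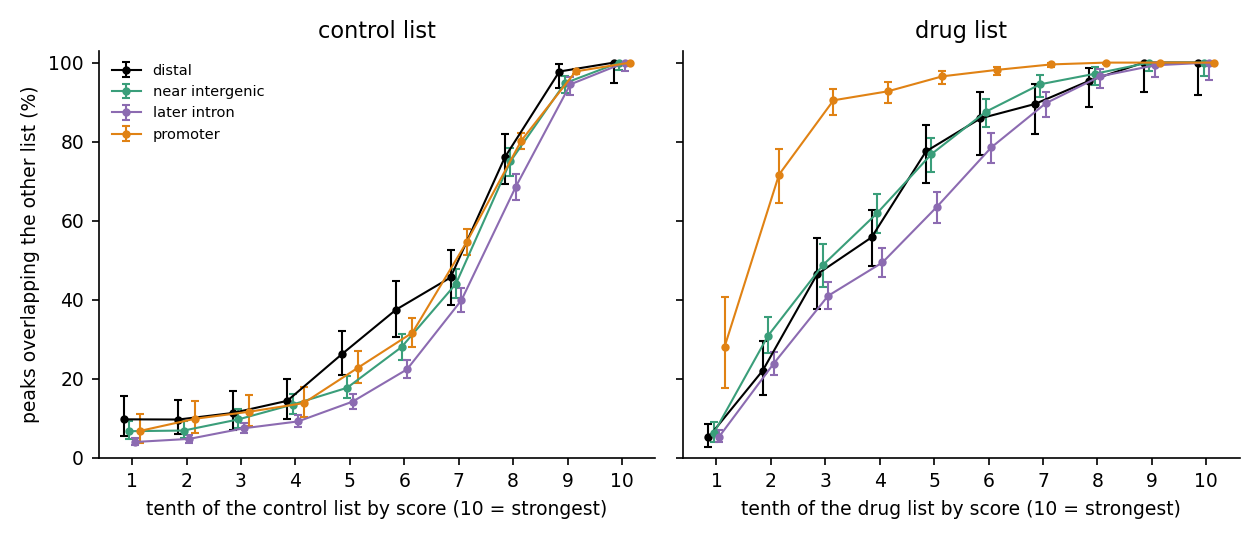
Percentage of peaks overlapping the other list (vertical) by group of score, with each whole list split into 10 equal groups (horizontal, 10 is the strongest), for distal peaks and 3 other classes, with exact 95% counting intervals as bars. In control the distal line runs at or above the later-intron line throughout, and in drug the promoter line lies far above all others in the weaker groups.

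Compared at equal score, distal control sites were overlapped more often than the 3 other classes compared outside promoters. Within the same 10 groups of control score, their overlapped share was 3.59 percentage points higher than that of nearer intergenic peaks (1.60 to 5.57), 7.06 points higher than that of later introns (5.18 to 8.95) and 7.13 points higher than that of first introns (5.14 to 9.11). Against promoter peaks of equal score the difference was -0.10 points (-2.18 to 1.98), an interval that includes 0. Drug sites behaved otherwise. Their overlapped share at equal drug score differed from that of promoters by -25.4 points (-28.7 to -22.1) and was 3.27 points above later introns (1.01 to 5.53). From first introns it differed by -0.34 points (-2.87 to 2.18), an interval that includes 0. Against nearer intergenic drug peaks the difference was -3.09 points (-5.50 to -0.67), but with 20 groups of score it was -2.06 and its interval reached 0.33. Peaks of equal score may differ in reads, and peaks that neighbour each other are not independent.

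Where both libraries had a peak, the drug peak was usually the smaller and lay within the control peak. The strongest drug partner was narrower at 525 of the 656 sites, wider at 71 and of equal width at 60, with medians of 386 bp in control and 245.5 bp in drug. At 429 sites, 65.4% (61.6 to 69.0), it lay inside the control peak, against 70.8% over all overlapped control peaks. For 630 sites the partner was itself a distal peak, and of the other 26, 9 were annotated to a CpG island and 5 to an Alu repeat. The drug score was above the control score at 50 sites. Across the 656 sites the rank correlation of the scores was 0.74, given as a description, since sites of the same pair of libraries are not replicates.

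**Figure D3:**
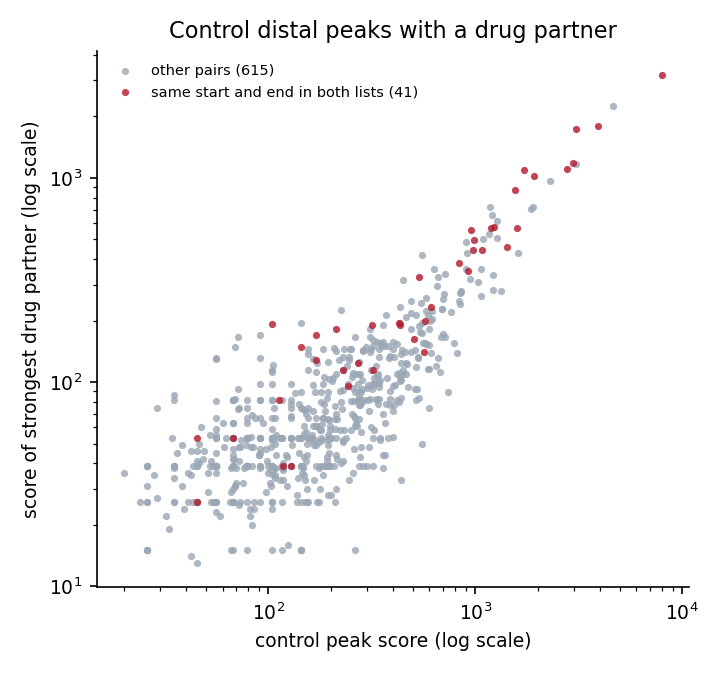
Score of the strongest overlapping drug peak (vertical, log scale) against the control score (horizontal, log scale) for the 656 control distal peaks with a drug partner, each point a site. The 41 pairs with identical start and end in both lists, in red, reach from a control score of 45 to the highest, 7969.

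Of the 10 strongest distal sites of each library 9 coincided, and many strong sites were narrow blocks with exactly the same limits in both. The highest score in both lists belonged to a 230 bp peak on chr9:60854381-60854610, nearest to SPATA31A5, with 7969 in control and 3185 in drug. A 235 bp peak nearest to LINC00494 on chr20:48520933-48521167 scored 3926 and 1789. A 245 bp peak nearest to E2F7, a repressor of the E2F cell cycle programme, on chr12:77007186-77007430 scored 3082 and 1730. Each of these 3 had the same start and end in both lists.

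The same held for peaks nearest to the zinc finger gene ZNF608 (chr5:124838345-124838576, scores 2984 and 1179), to IRS4-AS1 (chrX:108868744-108868977, 2776 and 1103), to CACHD1, a calcium channel regulator (chr1:64411085-64411317, 1917 and 1022), and to DAOA (chr13:104961429-104961655, 1722 and 1090). These were between 227 and 234 bp wide. Of all overlapped distal control sites, 41 had the same limits as the drug partner, 6.25% (4.52 to 8.38), against 1.91% over all overlapped control peaks. The share was 2.23% for nearer intergenic peaks, 2.42% for later introns and 0.41% for promoters. The 41 sites were 6.17% of the 665 overlapped drug peaks, against 1.84% over all overlapped drug peaks.

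These coincident sites had a median control score of 567, against 167 for the other pairs, and 31 of the 41 were at least 220 and under 250 bp wide. Of the 30 strongest control distal peaks 16 had such a width, 13 had the same limits in drug and 20 had limits within 10 bp. Among the 99 control distal peaks with a score of at least 500, 29 had such a width (29.3%, 20.6 to 39.3), against 13.1% of 267 nearer intergenic, 14.3% of 238 later-intron and 4 of 3625 promoter peaks of that strength. In drug 16 of 23 did (69.6%, 47.1 to 86.8), against 43.8% of 32, 48% of 25 and 2 of 579. Whether reads were misplaced at these sites was not tested. Without all peaks of such a width the overlapped share of drug distal peaks was 47.7%, and the control share stayed within its counting interval.

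The other leading sites were wide and lay on pseudogenes or RNA genes. A 967 bp peak on chr21:6369261-6370227, named for the cysteine synthesis gene CBS and lying in the noncoding RNA gene LOC102724701, scored 4619 and 2237. A 971 bp peak on chr3:96617088-96618058, whose nearest gene was EPHA6, covered MTRNR2L12, a nuclear copy of mitochondrial ribosomal RNA, and scored 3068 and 1173. The 1230 bp peak on chr1:145464946-145466175, named for NBPF20, contained the variant U1 small nuclear RNA gene RNVU1-31 and scored 2296 and 963. A 608 bp peak on chr2:136329366-136329973, named for the chemokine receptor CXCR4 but 211.5 kb from it, lay on the ubiquitin B pseudogene UBBP1 and scored 1911 and 724. All 4 belong to sequences with near-identical copies elsewhere, so their positions are uncertain.

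Other wide sites and the most remote sites had lower scores. A peak of 1155 bp lay 101.4 kb upstream of LIPC, the hepatic lipase gene, on chr15:58330038-58331192, with scores of 849 and 277 and a drug width of 357 bp. At FOXN2 a control peak of 1188 bp had a score of 206 and its drug peak, 265 bp wide, had 105. A control site with no drug peak, 1178 bp wide and near LPGAT1-AS1, had a score of 129. The most remote site seen in both libraries was 1441 kb from LINC00290, with scores of 1326 and 278, and the next was 1279 kb from CDH8, with 346 and 53.

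Distal sites of control cells without a drug peak numbered 1123 and were of moderate strength at most. Their median score was 56, against 55 over all control peaks without a drug peak. The highest was 334, at a 731 bp peak 85.7 kb from WDR72 on chr15:53454784-53455514. The next were named for OPA1-AS1 (307), USP25 (294), C16orf47 (292, the site that holds the ZFHX3-AS3 promoter), FAM133CP (281), MIR5197 (277), LRRC70 (260), VAPA (259), LINC00562 (258) and CLINT1 (246). The strongest of them ranked in the top 17.8% of the control list. Of the 1123 sites 25.9% had the smallest width of 200 bp.

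Distal sites seen in drug-treated cells alone numbered 592, and 530 of them, 89.5% (86.8 to 91.9), were 200 bp wide. Their median score was 26 and their median width 200 bp, both equal to those over all 8571 drug peaks without a control peak. Of the 592 sites, 258 had a score of 15 or less. The highest was 164, at a peak 2346 kb from the pseudogene ZNF733P on chr7:60958257-60958574. It was followed by sites named for LSP1P5 (153), KCNE4, a potassium channel subunit (112), LINC02270 (111), NBPF8 (108), FSTL5 (98), MIR4465 (96), SLC28A3 (93), GORASP2 (85) and ODC1-DT (84). The 62 drug-only sites wider than 200 bp had a median score of 52.5. LSP1P5 and NBPF8 belong to families with near-identical copies, so those positions are uncertain.

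Overlap changed with distance in opposite directions in the 2 lists, and at equal score both differences had intervals that include 0. The median distance was 88.7 kb in control and 99.3 kb in drug, and sites lay upstream and downstream in similar numbers, 866 and 913 in control and 639 and 618 in drug. Among control sites 33.4% of the 655 at 50 to 75 kb were overlapped, and the share was 36.1% at 75 to 100 kb, 38.6% at 100 to 200 kb, 40% at 200 to 500 kb and 54.0% of the 63 beyond. Among drug sites the corresponding shares were 55.7%, 57.1%, 51.6%, 46.2% and 47.1%. At equal score, sites over 200 kb away differed from those at 50 to 100 kb by 1.68 points in control (-3.32 to 6.69) and by -4.26 points in drug (-9.09 to 0.56). Just inside the threshold, up to 51 kb, 38 control sites had a median score of 56.5 and 8 were overlapped. Just outside, from 49 kb, 34 intergenic peaks had a median of 70 and 15 were overlapped. In drug, 7 of 14 sites just inside and 13 of 24 peaks just outside were overlapped.

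**Figure D4:**
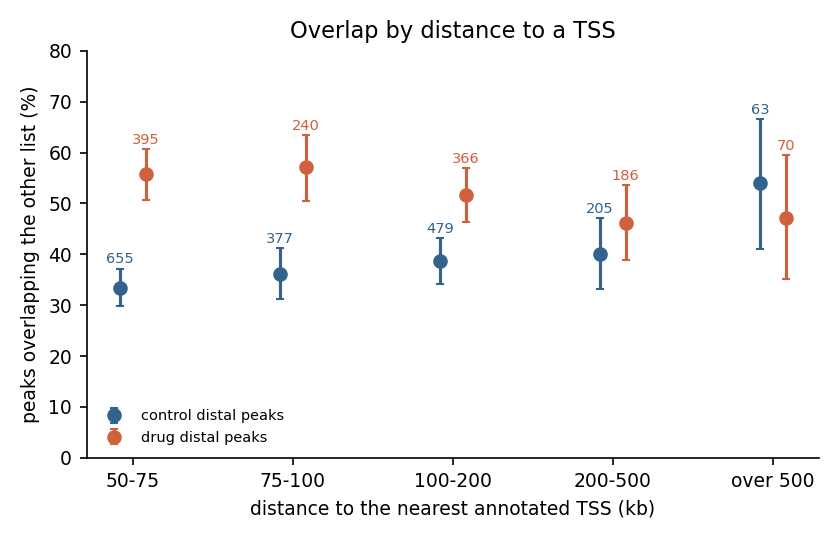
Percentage of distal peaks overlapping the other list (vertical) by distance to the nearest annotated TSS in kb (horizontal), control in blue and drug in orange, with exact 95% counting intervals and the number of peaks above each point. The control share goes from 33.4% at 50 to 75 kb to 54.0% beyond 500 kb, while the drug share goes from 55.7% to 47.1%, and the intervals at the far end overlap.

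Although called intergenic, many distal sites lay inside genes of the current RefSeq annotation. In control 581 of 1779 (32.7%) touched a RefSeq gene body, among them 360 long noncoding RNA genes, 113 pseudogenes and 102 protein-coding genes, counting a site once for each kind. Sites in a gene body were overlapped in 36.8% and those outside in 36.9%. In drug 379 of 1257 touched a gene body. Of the 1681 control sites outside chromosome 8, for which RefSeq start windows were used, 1096 remained over 50 kb from every RefSeq start and 69 were within 1 kb of a start. Of these 69 sites 46.4% (34.3 to 58.8) had a drug peak, against 36.9% of all distal control peaks and 40.1% of all control peaks. Of the 41 such drug sites 82.9% (67.9 to 92.8) had a control peak, against 52.9% of distal and 70.7% of all drug peaks. Both intervals include the share over all peaks, and these sites were not compared at equal score.

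Genes transcribed by RNA polymerase III formed a small set. A transfer RNA gene lay under 11 distal control peaks, and 9 of them overlapped a drug peak, against 36.9% of all distal control peaks and 40.1% of all control peaks. In drug a tRNA gene lay under 5 distal peaks, and 4 of them overlapped a control peak, against 52.9% and 70.7%. Most control sites were in the histone and tRNA gene region of chromosome 6. There TRS-AGA4-1, a serine tRNA gene, lay under peaks of 221 in control and 58 in drug, and TRX-CAT1-6 under peaks of 169 and 61. The methionine tRNA gene TRM-CAT4-2 lay under a control peak of 344, whose drug partner, of score 146, did not reach the gene. The glutamate tRNA gene TRE-TTC2-1 on chromosome 13 lay under a control peak of 512, and its drug partner of 143 also stopped short of the gene. The alanine tRNA gene TRA-AGC9-1 lay under a control peak of 79 with no drug peak. At the immunoglobulin heavy chain locus (IGH) 5 control sites were seen, led by scores of 548 and 356 with drug scores of 245 and 191, and 4 of the 5 overlapped a drug peak. The tRNA genes and the IGH locus both hold near-identical copies, and these sets were chosen after the values had been seen.

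Clusters of neighbouring sites were more frequent in control cells, which had more sites to join. Joined by the rule on the gap between neighbours given with the processing, the control sites formed 1410 groups, of which 1159 were single peaks and 66 held 3 or more, with 250 sites in the latter. The drug sites formed 1163 groups, of which 1089 were single and 11 held 3 or more, with 42 sites. Clustered control sites were overlapped in 32% (26.3 to 38.2) and single ones in 39.1% (36.3 to 42.0). For drug the shares were 85.7% (71.5 to 94.6) and 49.6% (46.6 to 52.6). Over all peaks the shares were 40.1% in control and 70.7% in drug. Clustered sites had a median score of 69 in control, against 78 for single ones, and of 53.5 in drug, against 39. These shares were not compared at equal score, neighbouring peaks are not independent, and the clustered drug sites lay in only 11 groups.

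The 3 largest control clusters, of 10 sites each, differed in what was seen with the drug. Downstream of CPS1, which encodes the entry enzyme of the hepatic urea cycle, 10 sites named for CPS1-IT1 spanned chr2:210681401-210721928, just beyond the end of the CPS1 gene. In genomic order their control scores were 45, 215, 62, 263, 342, 420, 180, 70, 54 and 140. The 7 distal drug peaks there, each overlapping a control site, scored 66, 61, 95, 153, 58, 38 and 45. This was the largest drug cluster, and its 3 sites without a drug peak were those of the lowest control scores, 45, 54 and 62.

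On chr6:63426861-63458960, between the starts of LGSN and the phosphatase gene PTP4A1 and inside the RefSeq gene body of LGSN, the control scores were 32, 31, 53, 69, 71, 82, 438, 123, 47 and 436. Of these sites 7 overlapped a drug peak, and the 6 distal drug peaks scored 41, 74, 54, 33, 43 and 84. The site of score 438 had a drug score of 33 and the site of score 436 had 84. Between SCG2, a secretory granule gene, and AP1S3, on chr2:223685424-223725887, the control scores were 26, 58, 98, 119, 82, 55, 74, 182, 145 and 44. Only the site of score 182 had a drug peak, with a score of 62, and the site of 145 next to it had none.

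**Figure D5:**
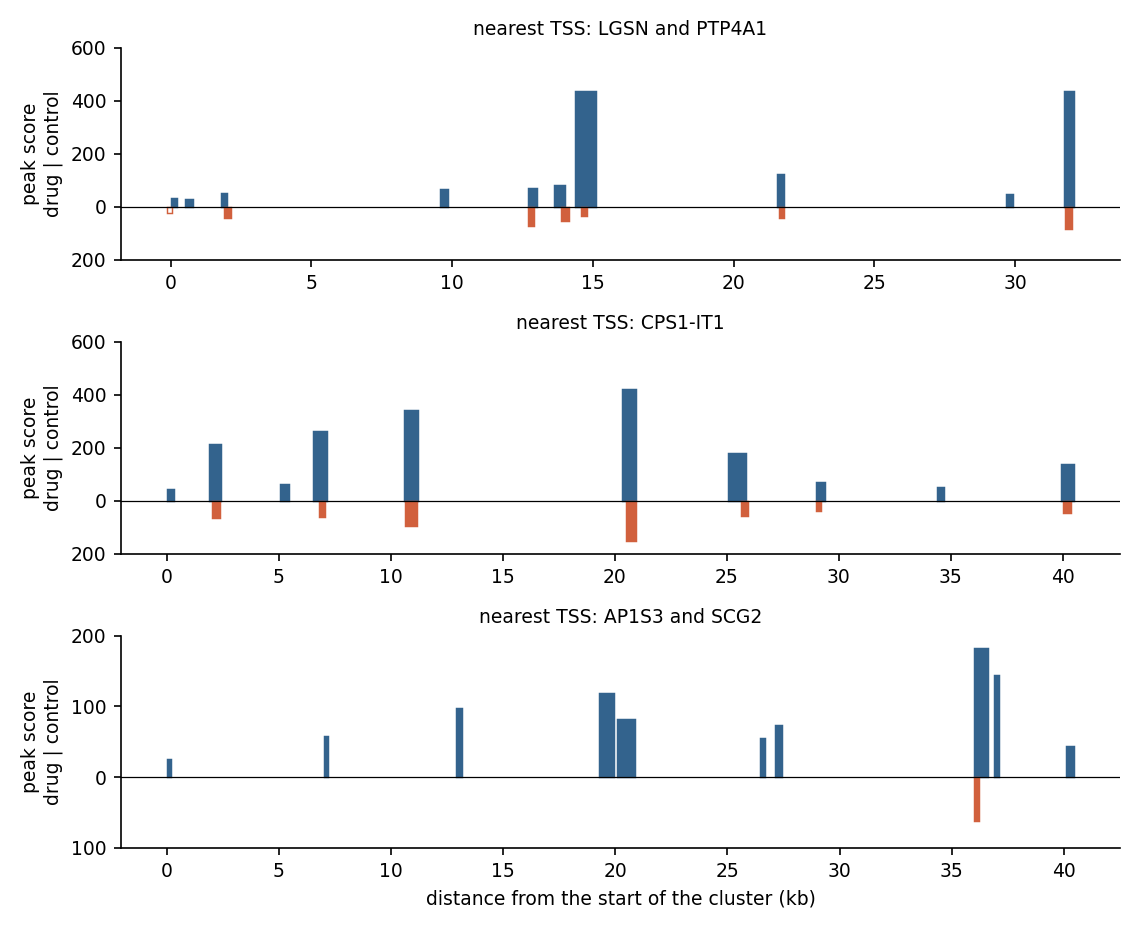
The 3 largest clusters of distal control peaks, drawn by distance from the cluster's start in kb (horizontal), with the width of each bar showing the peak's extent, control scores upward and drug scores downward on the vertical axis. Solid bars are distal peaks and the open bar is a drug peak of another class, and the lowest panel, near AP1S3 and SCG2, has a smaller score scale and a single drug peak of score 62.

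Other clusters went both ways. The 8 sites named for ZNF322, which include tRNA genes on chromosome 6, had 4 with a drug peak. The 6 sites near LINC01395, with control scores of 25 to 85, and the 6 near ODC1-DT, with 22 to 80, had 0. The 5 sites between MIR1252 and PAWR, a pro-apoptotic gene, scored 438, 228, 761, 85 and 48, and the first 3 had drug scores of 138, 52 and 221. By nearest gene, LY86-AS1 had 7 control sites, 6 of them overlapped, and 6 drug sites, all overlapped, with control scores up to 1025. SCG2 had 7 control sites, with scores of 26 to 119, and ZFP64 had 7, with 25 to 66, with 0 overlapped in each. ZFP64 was also the nearest gene of 2 drug sites. Over all distal control peaks 36.9% were overlapped, and over all control peaks 40.1%, with lower shares at low scores. TRIB1, a regulator of hepatic lipid metabolism, had 7 control sites, 4 of them overlapped. In all 1140 genes were named in control and 962 in drug, and 632 were named in both, 55.4% of the control names and 65.7% of the drug names.

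Liver transcription factors were the nearest gene of few distal sites. The share of all annotated genes that were named was not computed, so whether this is fewer than for other genes is not shown. Of 18 such genes, 3 were named in control with 7 sites, 3 of them overlapped, and 6 in drug with 8 sites, 3 of them overlapped. For this list and those below, the shares overlapped over all peaks were 40.1% in control and 70.7% in drug. Over distal peaks they were 36.9% and 52.9%, and each list has few sites. PROX1, a homeobox factor of hepatoblasts, had its strongest site 62.3 kb downstream at chr1:214050518-214051209, with scores of 517 and 214. Its other 2 control sites, of 111 and 49, had no drug peak. TBX3, a T-box factor of liver growth, had sites of 378 and 151, and of 56 and 67, and a drug site of 15 with no control peak. NR5A2, a nuclear receptor of bile acid synthesis, had 2 control sites of 45 and a separate drug site of 38. Drug sites of ONECUT1 (26), of HHEX (15), which neighbours KIF11 on chromosome 10, and of HNF4G (15) had no control peak. All 3 were 200 bp wide. FOXA2, also of this list, was not named. Within 100 kb of it, 4 control sites were named for LINC00261, and 3 of them overlapped a drug peak.

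Most genes of the other lists were not the nearest gene of a distal site, again without a share over all genes to set beside them. Of 17 hepatocyte and fetal liver genes only albumin (ALB) was named, by a control site of score 45 and width 200 bp. The 10 control sites just beyond the end of CPS1, also of this list, were named for CPS1-IT1 and are not counted here. KLF4, a pluripotency factor, was the only member of 16 AP-1 and immediate early genes, with 4 control sites of 164, 151, 79 and 60, of which those of 151 and 79 had drug scores of 33 and 53. Of 16 Wnt and stemness genes, TCF7L2, the nuclear partner of beta-catenin, had a site of 250 in control and 146 in drug, and CD24 (79 and 56) and PROM1 (56) had control sites without a drug peak. Of 15 growth factor and adhesion genes, BMP4 (91 and 56) and TGFBR2 (45) were named in control and FGFR2 (39) in drug, with 0 overlapped. Among 25 developmental transcription factors that border gene deserts, SOX5 had scores of 433 and 232, and NR2F2 had 35 in control alone.

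Genes of synapses and neural adhesion, which border some of the largest gene deserts, were named by 7 control and 8 drug sites, 4 overlapped in each, from 23 genes. CNTNAP2, a neurexin family gene, had 449 and 316 at a site 776.9 kb upstream and 143 and 15 at another. CDH18 had 94 and 63, while PCDH9 (129) and CDH9 (79 at both its sites) were seen in control alone. SLITRK6 (39), SLITRK1 (26 and 15) and PCDH7 (15) were seen in drug alone. Of the marker genes of other cell types, 0 of 6 blood cell, 0 of 7 fibroblast and endothelial and 0 of 5 neuronal markers was the nearest gene of a distal site in either list. Of 8 hepatocyte markers, which include CPS1, ALB was the only one named. The marker lists are short and no share over all genes was computed, so counts of 0 say nothing of cell identity. Nearness to a gene describes position, so these counts say nothing of expression.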

How the data were processed

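CUT&Tag peak tables of PLC8024 cells were used, 1 control and 1 drug library, grouped by title. Per the file headers, the authors called narrow peaks in each library with MACS2 and annotated them with HOMER. The build is hg38, per the submitters' processing notes. The deposited score of each peak is a whole number, by MACS2's convention 10 times the −log10 of the q-value, with a lowest value of 13 here. The aligner and software versions are not given in the sources used here. Of the control list 1 emptied line was not analysed here. Depth is unknown, so intervals cover counting error only.

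Peaks were compared by position (at least 1 bp shared). Shares carry exact Clopper-Pearson 95% intervals. Shares at equal score were compared within 10 equal groups of a list's scores, weighted by the distal peaks, with normal counting intervals. Clusters joined peaks less than 12.5 kb apart. The code, in Python 3.11.15 with pandas 2.3.3, NumPy 2.4.6, SciPy 1.17.1 and matplotlib 3.10.9, was tested on simulated data. RefSeq genes and promoter windows of GRCh38.p14 were used for symbols (1136 of 1140 control and 959 of 962 drug gene identifiers matched), gene bodies and start sites, and the promoter table used here has no windows on chromosome 8. The planned search for motifs in the peaks themselves needs a genome and was not run, and the search of RefSeq windows was added after seeing the data. In the table, 1435 of 1435 coincident windows on opposite strands were reverse complements.

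Named sites were, per list, the 10 strongest, the 10 strongest with and the 10 strongest without overlap, the 5 farthest, the 5 widest, the 5 genes and 3 clusters with most peaks and up to 2 peaks per gene list. Some of the genes and sites this rule takes are not reported here, and tRNA, IGH, TRIB1, LY86-AS1, ZFP64 and MIR1252 sites and further members of the lists were added after their values were seen. Members, lists and rules were chosen with earlier results of these data known. Alternatives were other overlap rules, scores of at least 50, equal list lengths, 100 kb, merged peaks, peaks wider than 200 bp, a left-out chromosome, 20 groups, width splits and 5 kb clusters. Added later were RefSeq start sites, sites outside RefSeq gene bodies and removal of peaks at least 220 and under 250 bp wide.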

Additional observations from a re-analysis of the deposited data

How the results depend on the processing

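Of the values recomputed under other settings 31 kept within their limits, 21 moved and 1 lost its call. The overlapped share of control distal peaks was 39.5% with drug peaks allowed within 500 bp, 33.0% at scores of at least 50, 55.8% at equal list length, 40.3% beyond 100 kb and 33.7% for peaks wider than 200 bp. That of drug distal peaks was 86.7% at scores of at least 50, 45.9% at equal list length, 49.5% beyond 100 kb, 87.3% for peaks wider than 200 bp and 47.7% without peaks at least 220 and under 250 bp wide. Between the lists, the order of these shares turned round at equal list length. Shares over all peaks were not recomputed under these settings. The distal share of the drug list was 2.85% at scores of at least 50, where, as for peaks wider than 200 bp, it fell under that of control. Beyond 100 kb the distal shares were 1.50% in control and 2.12% in drug, for peaks wider than 200 bp 3.39% and 3.03%, and with RefSeq start sites 2.27% and 2.90%. The last setting also leaves out chromosome 8, and kept 1096 of 1681 and 824 of 1181 sites. Joined under 5 kb, 29 control and 4 drug clusters held 3 or more sites. The drug difference from nearer intergenic peaks was -2.06 points with 20 groups, its interval reaching 0.33. Stricter distances, scores, widths and cluster gaps keep fewer peaks by construction, and otherwise the cause was not tested. No paired analysis was possible because each group has 1 library, and for the same reason no library could be left out. Unknown depth limits every comparison between the lists.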
